A study of Mus musculus with 33 samples.

Results

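Cardiomyocytes, the contractile cells of the heart, were compared between mice that combine a cardiomyocyte-specific knockout of Ptpmt1 with a mutation of Eif2a (double) and control mice of the same line. The comparison rests on 6 of the 33 samples of the series, 3 doubles and 3 controls, chosen by the genotype in their labels, and all genes were taken. The same table holds 3 libraries of the Ptpmt1 knockout alone and 3 of the Eif2a mutant alone, which entered the same fit and serve as the 2 single-mutation groups. Ptpmt1 encodes a phosphatase, anchored in the inner membrane of mitochondria, that produces phosphatidylglycerol, the precursor of cardiolipin, the lipid that the respiratory chain and the cristae depend on. Eif2a, as the labels use it, is read here as the alpha subunit of the translation initiation factor eIF2. Its gene symbol is Eif2s1, whereas a different initiation factor has the symbol Eif2a. Phosphorylation of that subunit lowers general translation and favours translation of the transcription factor Atf4, which starts the integrated stress response (ISR). Genes of this response import and make amino acids, charge tRNAs and supply one-carbon units, and in heart muscle the response is a known companion of mitochondrial defects. The labels do not say which change the Eif2a mutation makes, and the sources used here give neither the Cre driver of the knockout nor the strain or age. The molecule is labelled nuclear RNA, and libraries were made after removal of ribosomal RNA.

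The 12 libraries held 1887978 to 12583868 reads in genes, recovered from the deposited normalized counts. The shallowest was double 2, in which 1 read is worth 4.42 normalized counts and 228 of the 13896 tested genes were at 0, against 10420017 and 6871739 reads in doubles 1 and 3 and 9808006 to 11277025 in the controls. Its median correlation with the other 11 libraries was 0.954; Eif2a mutant 1 was at 0.945 and the remaining libraries at 0.970 or above. Control 3 stood apart from controls 1 and 2, with chi-square values of 18.4 and 15.98 for each degree of freedom, against 3.88 between controls 1 and 2. Ptpmt1 knockout 3 also stood apart by this measure, at 23.85 and 21.25 from Ptpmt1 knockouts 1 and 2, against 7.32 between those. Y-linked genes and Xist gave a male pattern in 2 of 3 doubles, 3 of 3 Ptpmt1 knockouts, 3 of 3 Eif2a mutants and 1 of 3 controls, and its part in the results is given below as a fit with a term for this pattern. Of the defining cardiomyocyte markers, Tnnt2, a thin filament protein, had 15233, 16074 and 16777 normalized counts in the doubles and 20290.5, 20434 and 18920.2 in the controls. The 15 cardiomyocyte markers took 6.09 to 7.71% of reads in the doubles and 6.21 to 7.10% in the controls. Fibroblast and endothelial genes were also present in every library (Col1a1 at 1494 or more in the doubles and 2084 or more in the controls), while the T cell marker Cd3e was at 0 in all 6. Fewer cells of a type and less RNA per cell cannot be told apart in such bulk samples. Nothing in the labels says that the samples of a group come from separate animals. The sex patterns differ within the doubles and within the controls, so neither group comes from 1 animal alone. The p-values measure the spread between these samples, which may be technical in part.

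Ptpmt1 was low in every double. It had 46.7, 39.8 and 49.2 normalized counts in doubles 1, 2 and 3, against 158, 156 and 175 in controls 1, 2 and 3, and the groups did not overlap. The log2 fold change was -1.83 ± 0.17 (± SE here and below; adjusted p = 0.00024 by limma with Benjamini-Hochberg adjustment), or 28.1% of control (95% interval 21.8 to 36.2). The Ptpmt1 knockout libraries were at 40.6, 31.3 and 34.7 and the Eif2a mutants at 149.7, 163 and 158, so the doubles sat with the knockouts and the Eif2a mutants with the controls. The gene lies at chromosome 2, 90908716 to 90918258 (GRCm38), and its exons overlap exons of Kbtbd4 on the opposite strand. Whether counting used strand is not stated in the sources used here, and reads of the pair cannot be told apart. Kbtbd4 itself averaged 194 ± 16.8 in the doubles and 184 ± 10.3 in the controls (SD, n = 3 each). Eif2s1, at chromosome 12, 78861819 to 78887010, had 838, 928 and 779.8 in the doubles and 691, 677 and 736 in the controls, a log2 difference of 0.27 ± 0.15 that was not called (adjusted p = 0.561). The gene named Eif2a differed by 0.16 ± 0.10 (adjusted p = 0.599). Gene counts need not show a mutation, so the RNA level of Eif2s1 is no check of the Eif2a label.

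Few genes were called in the double against control. Of 13896 genes tested, 20 passed an adjusted p of 0.05 by limma, which is 0.144% of those tested. Of these, 10 were higher (0.072%) and 10 lower (0.072%). At an unadjusted p under 0.05 there were 1404 genes (10.1%), and DESeq2 called 93 (0.669%). The low number of calls therefore does not show that few genes differ. Without the shallow double 2, 6 genes passed, 5 of them among the 20, and all 20 kept the sign of their fold change. None of the 20 is a member of the ISR lists described below. Leaving out 1 library also changed the number that passed, to 9 without double 1, 4 without double 3, 3 without control 1, 4 without control 2 and 26 without control 3. The other groups share the estimate of the spread, and the number was 32 without Ptpmt1 knockout 2, 65 without Ptpmt1 knockout 3, 13 without Eif2a mutant 2 and 12 without Eif2a mutant 3.

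ISR genes were among those that differed between the doubles and the Ptpmt1 knockouts. Asns, the enzyme that makes asparagine, had 300.4, 283 and 263 normalized counts in the doubles, 976, 1187 and 1452 in the Ptpmt1 knockouts, 189, 279 and 240.3 in the Eif2a mutants and 211, 224 and 259.5 in the controls. Every double was just above every control, at 0.29 ± 0.15 on the log2 scale, which was not called (adjusted p = 0.556), and every double was below every Ptpmt1 knockout by a factor of more than 3. The double against the Ptpmt1 knockout stood at -2.07 ± 0.15 (adjusted p = 9.99e-06), and that contrast is also the test of the difference between the double and the knockout in their distance from control. Without double 2 it was -2.08 (adjusted p = 0.000272). Trib3, a pseudokinase that restrains Atf4, had 33.5, 26.5 and 32.8 in the doubles, 181, 160.1 and 457 in the Ptpmt1 knockouts, 69.8, 39.1 and 45.1 in the Eif2a mutants and 14.8, 15.0 and 13.2 in the controls. All doubles were above all controls and below all Eif2a mutants. The double was 2.07-fold above control on the log2(value + 1) scale (95% interval 1.26 to 3.43), without passing the test over all genes (1.05 ± 0.34, adjusted p = 0.308), and fell by 2.91 against the Ptpmt1 knockout (adjusted p = 0.000775). Mthfd2, the mitochondrial enzyme of one-carbon metabolism, had 235, 269.6 and 204 in the doubles, 783, 813 and 1275 in the Ptpmt1 knockouts, 260.1, 234 and 195 in the Eif2a mutants and 229, 245 and 287 in the controls. The doubles overlapped the controls (-0.11 ± 0.17, adjusted p = 0.874) and lay below all Ptpmt1 knockouts (-1.99 ± 0.17, adjusted p = 5.03e-05).

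The promoters of 3 ISR genes are shown because these genes separated the doubles from the Ptpmt1 knockouts and hold the motif TGATGNAA, the core of the composite element that C/EBP and ATF factors bind. They were chosen after their values were seen. Each runs 5′ to 3′ on the gene's strand, from 250 bases before to 50 bases after the start, from RefSeq (GRCm38.p6), and capitals mark the motif on either strand. The regions are chr6:7693160-7693459 (minus strand) for Asns, chr2:152344011-152344310 (minus strand) for Trib3 and chr2:119350992-119351291 (plus strand) for Chac1.
Asns: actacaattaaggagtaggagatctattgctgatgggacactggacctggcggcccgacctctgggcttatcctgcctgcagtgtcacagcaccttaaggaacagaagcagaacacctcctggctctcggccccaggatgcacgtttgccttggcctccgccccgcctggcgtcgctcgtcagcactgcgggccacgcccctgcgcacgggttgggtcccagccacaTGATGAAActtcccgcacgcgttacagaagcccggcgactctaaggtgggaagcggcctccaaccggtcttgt
Trib3: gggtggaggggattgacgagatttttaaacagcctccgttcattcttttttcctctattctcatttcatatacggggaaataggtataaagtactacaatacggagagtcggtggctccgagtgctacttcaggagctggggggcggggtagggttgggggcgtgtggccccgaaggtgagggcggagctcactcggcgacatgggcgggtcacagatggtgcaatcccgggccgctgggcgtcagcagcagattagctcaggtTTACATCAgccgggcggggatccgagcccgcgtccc
Chac1: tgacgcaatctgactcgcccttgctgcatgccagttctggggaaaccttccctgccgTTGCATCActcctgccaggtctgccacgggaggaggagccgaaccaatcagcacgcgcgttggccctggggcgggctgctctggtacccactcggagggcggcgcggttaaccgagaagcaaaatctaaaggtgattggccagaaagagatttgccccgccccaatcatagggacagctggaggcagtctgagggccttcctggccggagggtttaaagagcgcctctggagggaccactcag
The motif begins 23 bases before the start in Asns, 14 bases after it in Trib3 and 193 bases before it in Chac1. Of the members of the 4 ISR lists below, 55 had a promoter in the table and 17 of these (30.9%) held TGATGNAA on either strand, against 287 of 10626 tested genes with a promoter (2.70%) and 1219 of 27025 in all (4.51%). A match describes these letters and is no evidence of binding in these cells.

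**Figure D1:**
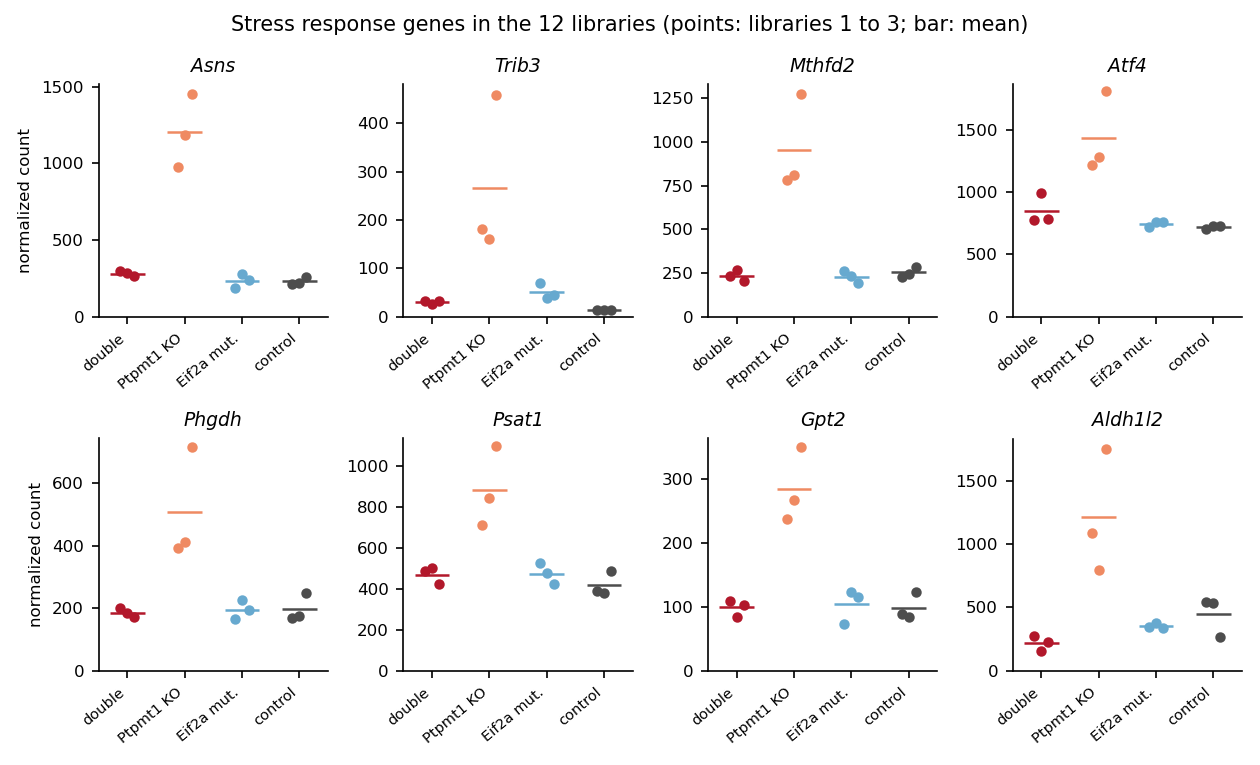
Normalized count (linear axis from 0) of 8 ISR genes in each of the 12 libraries; points are libraries 1 to 3 of a group and bars their mean, with the double at the left and control at the right. In each of these 8 genes the 3 doubles lie below the 3 Ptpmt1 knockouts.

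Several regulators of the response were also lower in the doubles than in the Ptpmt1 knockouts. Atf4 itself had 773, 990.0 and 786 normalized counts in the doubles, 1216, 1285 and 1809 in the Ptpmt1 knockouts and 708, 728 and 727 in the controls, so that every double was above every control and below every knockout. It was 0.23 ± 0.13 against control (adjusted p = 0.574) and -0.74 ± 0.13 against the Ptpmt1 knockout (adjusted p = 0.0125; without double 2, -0.86, adjusted p = 0.0155). That call was lost without double 1 (adjusted p = 0.0711) and without double 3 (0.0719). Atf5, a related factor linked to the mitochondrial stress response, had 127, 110.5 and 117 in the doubles, 260.1, 234 and 724 in the Ptpmt1 knockouts and 102, 101 and 101 in the controls. It fell by 1.57 against the knockout (adjusted p = 0.026), where Ptpmt1 knockout 3 was far above the other two. The call of Atf5 was lost without any 1 of the doubles, at adjusted p = 0.081 to 0.109, and its exons overlap those of Il4i1 and Nup62 on the opposite strand. Ddit3, the factor CHOP, had 63.0, 61.9 and 114 in the doubles, 108, 157 and 204 in the Ptpmt1 knockouts and 56.8, 65.7 and 91.9 in the controls. It was called in neither contrast (0.12 ± 0.40 against control and -0.98 ± 0.40 against the Ptpmt1 knockout), and its exons overlap those of Mars on the opposite strand. Chac1, which degrades glutathione, had 6.23, 13.3 and 2.34 in the doubles, 67.6, 76.7 and 158 in the Ptpmt1 knockouts and 3.29, 4.16 and 2.94 in the controls, and double 2 gave the highest double value with few reads behind it. It fell by 3.76 against the Ptpmt1 knockout (adjusted p = 0.0259). The call of Chac1 was lost without double 1, double 3 or any 1 knockout, at adjusted p = 0.0544 to 0.101. Atf3, a stress-induced factor, took another course, with 74.7, 66.3 and 60.9 in the doubles, 120.1, 127 and 181 in the Ptpmt1 knockouts, 96.4, 70.0 and 94.4 in the Eif2a mutants and 149.7, 157 and 97.0 in the controls. The doubles lay below all other libraries except Eif2a mutant 2, which lay between doubles 1 and 2. The double was at -0.96 ± 0.22 against control, the smallest adjusted p of the ISR lists (0.114), and fell by 1.05 against the Ptpmt1 knockout (adjusted p = 0.0332). The call of Atf3 was lost without any 1 of the doubles or knockouts, at adjusted p = 0.0579 to 0.115.

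Phgdh, Psat1, Gpt2 and Aldh1l2, enzymes of amino acid and one-carbon metabolism, were lower in the doubles than in the Ptpmt1 knockouts. Phgdh, the first enzyme of serine synthesis, had 199, 186 and 172 normalized counts in the doubles, 391, 412 and 715 in the Ptpmt1 knockouts and 169, 175 and 247 in the controls, and fell by 1.39 against the Ptpmt1 knockout (adjusted p = 0.00549). Psat1, the next enzyme of that pathway, averaged 469 ± 40.1 in the doubles, 883 ± 197 in the Ptpmt1 knockouts and 417 ± 59.4 in the controls (SD, n = 3 each). Against the knockout Psat1 was at -0.89 ± 0.15 (adjusted p = 0.00887; 0.0621 without double 3). Gpt2, the mitochondrial alanine aminotransferase, averaged 98.9 ± 13.4 in the doubles, 284 ± 57.9 in the Ptpmt1 knockouts and 98.3 ± 21.3 in the controls (SD, n = 3 each). Its doubles differed from the Ptpmt1 knockouts by -1.50 ± 0.22 (adjusted p = 0.00526). Aldh1l2, the mitochondrial formyltetrahydrofolate dehydrogenase, had 272, 155 and 224 in the doubles, 1089.9, 793 and 1755 in the Ptpmt1 knockouts, 349, 377 and 335 in the Eif2a mutants and 541, 535 and 271 in the controls. Doubles 2 and 3 lay below all controls, and double 1 was level with control 3, the control that stands apart. The difference from control, -1.02 ± 0.28, did not pass (adjusted p = 0.22), and that from the Ptpmt1 knockout, -2.44 ± 0.28, did (adjusted p = 0.000747). Reads of Aldh1l2 and of D10Wsu102e, which overlaps it on the opposite strand, cannot be told apart.

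Several amino acid transporters and tRNA synthetases were lower in the doubles than in the Ptpmt1 knockouts as well. Slc7a11, the cystine transporter subunit, had 10.9, 35.4 and 1.17 normalized counts in the doubles, 99.4, 108 and 152 in the Ptpmt1 knockouts and 9.05, 7.48 and 5.15 in the controls. The doubles overlapped the controls, and double 2 at 35.4 rests on 8 reads; against the Ptpmt1 knockout the double fell by 3.60 (adjusted p = 0.0302). The call of Slc7a11 was lost without double 1, double 3 or any 1 knockout, at adjusted p = 0.0501 to 0.0983. Slc7a3, a cationic amino acid transporter, had 15.6, 0 and 9.37 in the doubles, 192, 190.4 and 362 in the Ptpmt1 knockouts and 13.2, 4.99 and 6.62 in the controls, and fell by 5.42 against the Ptpmt1 knockout (adjusted p = 0.00531). Slc7a5, the large neutral amino acid transporter, was not called in either contrast (-0.11 ± 0.23 against control; -1.03 ± 0.23 against the knockout, adjusted p = 0.0545). Cars, the cytosolic cysteine tRNA synthetase, averaged 303 ± 22.4 in the doubles, 548 ± 41.4 in the Ptpmt1 knockouts and 275 ± 37.3 in the controls, and its doubles were -0.85 ± 0.12 from the knockouts (adjusted p = 0.00362). Trim66 and Cyb5r2 had few or no reads in the doubles. Trim66, a chromatin reader, had 2.33, 4.42 and 0 in the doubles, 58.9, 66.3 and 156 in the Ptpmt1 knockouts and 0, 0 and 0.735 in the controls. Cyb5r2, a cytochrome b5 reductase whose exons overlap Ppfibp2 on the opposite strand, had 5.45, 0 and 5.85 in the doubles, 69.2, 59.7 and 73.2 in the Ptpmt1 knockouts and 4.94, 3.32 and 5.88 in the controls. Of the secreted stress hormones, Gdf15 was too low to test, with 6 reads over the doubles, 84 over the Ptpmt1 knockouts and 5 over the controls. Most of the 84 came from Ptpmt1 knockout 3, as the Ptpmt1 knockouts had 5.57, 5.68 and 44.8 normalized counts. Fgf21 had 0 reads in every library.

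Over the 4 ISR lists together (regulators, enzymes of amino acid and one-carbon synthesis, transporters of amino acids and cytosolic tRNA synthetases), 66 of 71 members found in the table were tested. None of the 66 passed in the double against control by limma or edgeR, 1 passed lower by DESeq2, and 4 higher and 2 lower had an unadjusted p under 0.05. Over all genes tested 4.69% were higher and 5.41% lower at that unadjusted p, 10.1% in all, and DESeq2 called 0.669%; the counts of other lists below stand beside the same shares. A count of 0 is what the background of 0.144% gives, so it says little by itself. Their median log2 fold change was 0.07 (45 positive, 21 negative), beside -0.00 over all genes tested. The medians of the regulators, synthesis genes, transporters and cytosolic tRNA synthetases were 0.22, 0.04, 0.04 and 0.06. For the regulators the median against control was 0.24 in the Eif2a mutant and 0.70 in the Ptpmt1 knockout. Against the Ptpmt1 knockout, where 122 genes passed (0.878% of those tested, with 62 or 0.446% higher and 60 or 0.432% lower), 24 of the 66 were called lower and 0 higher. The number lower was 15 without double 1, 21 without double 2, 10 without double 3 and 19 to 28 in the fits without 1 of the other libraries. It was 36 with array quality weights and 34 by DESeq2. The median over the members was -0.55 with all libraries and -0.58 without double 2. By list, 5 of 15 regulators, 7 of 18 synthesis genes, 4 of 13 transporters and 8 of 20 cytosolic tRNA synthetases were lower in the double than in the Ptpmt1 knockout. With 1 library left out these counts were 1 to 6, 5 to 9, 1 to 5 and 3 to 9. Most of the 122 called genes, among them all 62 higher ones, are outside these lists. Over all genes the number called in this contrast was 55 without double 1, 49 without double 2, 29 without double 3, 52 without Ptpmt1 knockout 1, 327 without Ptpmt1 knockout 3 and 220 without Eif2a mutant 1, which shares the fit. Against control, 45 genes were called higher in the Ptpmt1 knockout (0.324% of those tested) and 4 in the Eif2a mutant (0.0288%). The lists were chosen with earlier results of these data known.

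**Figure D2:**
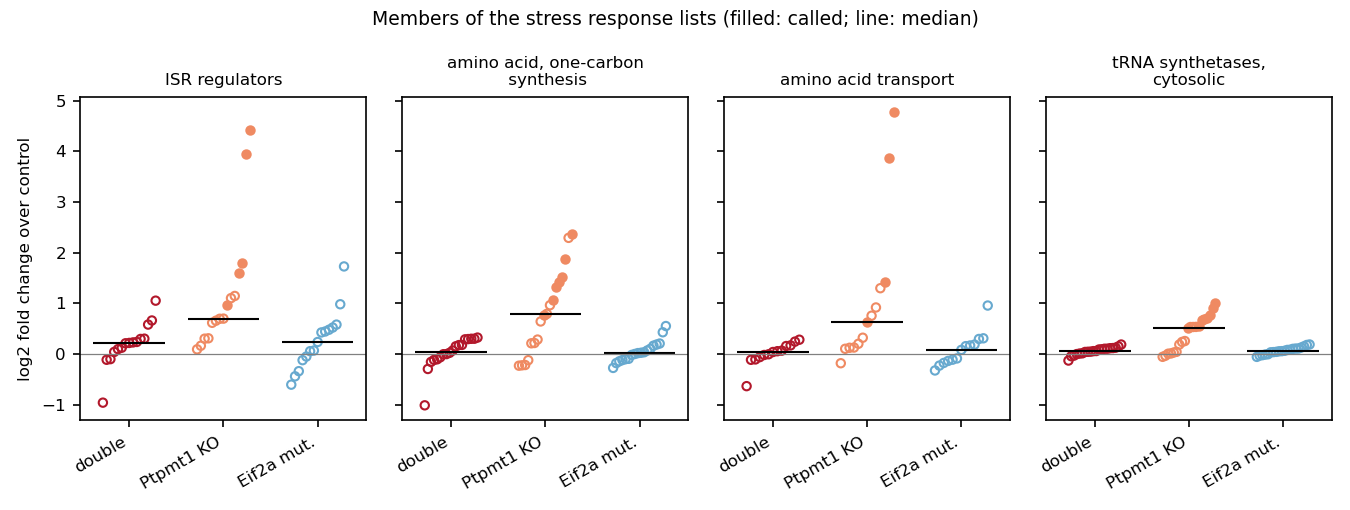
Log2 fold change over control of each tested member of the 4 ISR lists in the double, the Ptpmt1 knockout and the Eif2a mutant; filled points passed an adjusted p of 0.05, lines are medians, and the 3 comparisons share the 3 controls. No point of the double is filled, and the filled points all belong to the Ptpmt1 knockout.

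The double also departed from the sum of the 2 single mutations in a few genes. The interaction, the effect of Ptpmt1 loss on the Eif2a mutation minus its effect without it, passed for 3 genes (0.0216% of those tested), all ISR genes: Trib3 at -4.63 ± 0.48 (adjusted p = 0.000525), Asns at -2.09 ± 0.22 (adjusted p = 0.000525) and Mthfd2 at -1.84 ± 0.25 (adjusted p = 0.00835). Next by p were Xpot, the exporter of tRNA from the nucleus (-0.83 ± 0.13, adjusted p = 0.0503), Cars (-0.95 ± 0.16, adjusted p = 0.0769) and Trim66 (-6.30 ± 1.10, adjusted p = 0.0769). Trib3, Asns and Mthfd2 passed in every fit that left out 1 library. Trib3 was not called by limma voom (adjusted p = 0.234), nor Mthfd2 by voom (0.0663) or with a term for the sex pattern (0.0784). With that term and without double 2, 0 genes passed, so Asns was lost there as well. The number that passed was 5 without double 2 or Ptpmt1 knockout 2, 7 without Eif2a mutant 1, 8 without control 3 and 35 without Ptpmt1 knockout 3. Against the Eif2a mutant alone the double differed in 1 gene by limma (0.0072%), Ptpmt1 itself (-1.78 ± 0.17, adjusted p = 0.000358), while 1131 genes had an unadjusted p under 0.05 and DESeq2 called 22. Without Ptpmt1 knockout 3, limma called 2. A contrast with 1 call does not show that the double and the Eif2a mutant are alike.

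Among the 10 genes higher in the double than in control, Slc2a3 and Hjv were also high in the Eif2a mutants but not in the Ptpmt1 knockouts. Slc2a3, the glucose transporter GLUT3 (chromosome 6, 122727809 to 122801640), had 649, 742 and 596 normalized counts in the doubles, 333, 294 and 327 in the Ptpmt1 knockouts, 745, 933 and 734 in the Eif2a mutants and 341, 376 and 309 in the controls. The doubles and Eif2a mutants were all above the controls and Ptpmt1 knockouts, which overlapped each other. It rose by 0.95 ± 0.12 against control (1.93-fold; adjusted p = 0.00478; 0.87 and adjusted p = 0.0302 without double 2), by 1.05 against the Ptpmt1 knockout (adjusted p = 0.000649), and in the Eif2a mutant by 1.23 against control (adjusted p = 0.000344), one of 5 genes called there (0.036%). Slc2a3 and Ptpmt1 were the genes called in each of the 6 fits that left out 1 double or control. Hjv, hemojuvelin, a co-receptor for bone morphogenetic proteins that sets hepcidin in liver and is made in muscle (chromosome 3, 96525163 to 96529216), had 209, 212 and 194 in the doubles, 72.4, 78.6 and 80.8 in the Ptpmt1 knockouts, 211, 252 and 217 in the Eif2a mutants and 91.3, 88.9 and 115 in the controls. No double overlapped a control, and the Ptpmt1 knockouts lay below every control. It rose by 1.06 ± 0.14 against control (adjusted p = 0.01; 0.0406 without double 2) and by 1.40 against the Ptpmt1 knockout (adjusted p = 0.000295).

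Bmp10 and Eng, a ligand and a co-receptor of BMP signalling, also rose, and neither was called without double 2. Bmp10, a cardiac growth factor (chromosome 6, 87428994 to 87437677), had 2327, 2493 and 2584 normalized counts in the doubles, 2033, 1957 and 2224 in the Ptpmt1 knockouts, 2417, 2446 and 2525 in the Eif2a mutants and 1631, 1863 and 1557 in the controls. All 9 mutant libraries were above all 3 controls. The double rose by 0.55 ± 0.08 (adjusted p = 0.0114; 0.0727 without double 2) and the Eif2a mutant by 0.55 (adjusted p = 0.0236). Bmp10 is also a marker of atrial cardiomyocytes, of which 10 were tested. Their summed share of reads was 0.397 to 0.434% in the doubles and 0.389 to 0.445% in the controls (exact permutation test, two-sided p = 1). By member, 7 of the 10 were positive (median 0.25; 0.29 without double 2), and 4 were higher and 1 lower at an unadjusted p under 0.05. Their part in the Bmp10 result was not tested. Eng, endoglin, the endothelial co-receptor that binds BMP9 and BMP10, had 2086, 2148 and 2039.7 in the doubles, 1359.5, 1600.2 and 1489.7 in the Ptpmt1 knockouts and 1659.5, 1546 and 1439 in the controls, and rose by 0.44 ± 0.08 against control (adjusted p = 0.0443; 0.183 without double 2). The endothelial markers as a list, 11 tested, took 0.166 to 0.173% of reads in the doubles and 0.158 to 0.183% in the controls. By member, 4 were positive and 7 negative (median -0.05), 3 were higher and 2 lower at an unadjusted p under 0.05, and DESeq2 called 1. Their part in the Eng result was not tested. Reads of Eng and Fpgs, which overlaps it on the opposite strand, cannot be told apart. Fpgs was at -0.02 ± 0.16.

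Ccng1, cyclin G1, a p53 target (chromosome 11, 40748552 to 40755311), had 2028, 1812 and 2057 normalized counts in the doubles, 1682, 1717 and 1682 in the Ptpmt1 knockouts, 1727, 1738 and 1684 in the Eif2a mutants and 1366, 1445 and 1274 in the controls. The doubles were above every other library and the controls below every other. It rose by 0.53 ± 0.08 (adjusted p = 0.0114; 0.0161 without double 2), the one member of 15 tested p53 targets that passed. The p53 targets had a median of 0.29 (10 of the 15 positive), and 6 of the 15 had an unadjusted p under 0.05, all higher, where 4.69% of all genes tested were. The single mutants leaned the same way against the same controls. Their medians were 0.13 in the Ptpmt1 knockout (11 positive) and 0.18 in the Eif2a mutant (9 positive). Cdkn1a, the cell cycle inhibitor p21, had 251, 208 and 290.4 in the doubles and 145, 119 and 147 in the controls (0.85 ± 0.18, adjusted p = 0.077), with no overlap. Eda2r, a receptor of the TNF family, was at 1.25 ± 0.28 (adjusted p = 0.107), and its doubles at 78.6, 186 and 136 spread widely against 61.7, 47.4 and 48.5 in the controls. Zmat3, an RNA-binding p53 target, was at 0.35 ± 0.10 (adjusted p = 0.241).

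**Figure D3:**
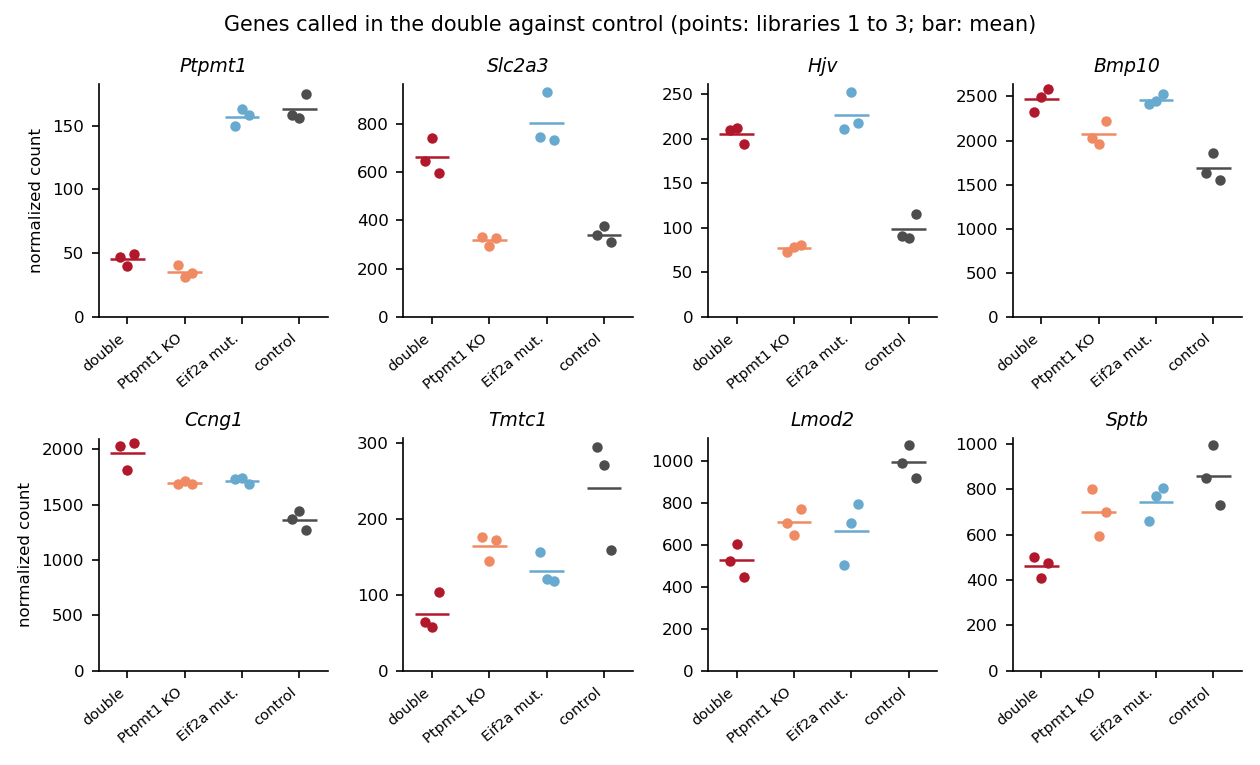
Normalized count (linear axis from 0) of 8 genes called in the double against control, per library; points are libraries 1 to 3 and bars the group mean, with the double at the left and control at the right. Slc2a3 and Hjv are high in the double and the Eif2a mutant, and Ptpmt1 is low in the double and the Ptpmt1 knockout. Ccng1, Lmod2, Tmtc1, Sptb and Bmp10 have the singles between double and control in their means, with the Eif2a mutant of Bmp10 almost level with the double.

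The other genes that rose include Crmp1 and Tppp, known from the nervous system, and the noncoding RNA Meg3. Crmp1, a collapsin response mediator that acts on the cytoskeleton, had 204, 221 and 222 normalized counts in the doubles and 126, 109 and 127 in the controls. The difference was 0.84 ± 0.14 (adjusted p = 0.0203). Tppp, a tubulin polymerization factor, had 150.2, 172 and 169.8 in the doubles and 88.0, 92.3 and 94.8 in the controls. That is 0.83 ± 0.15 (adjusted p = 0.0365) on the log2 scale. Meg3, a maternally expressed noncoding RNA of the imprinted Dlk1 region on chromosome 12, had 3124, 3337 and 3387 in the doubles, 2363, 2367 and 2405 in the Ptpmt1 knockouts, 2577, 2868 and 2722 in the Eif2a mutants and 2645, 2298 and 2035 in the controls. Its exons overlap those of Gm26906 on the opposite strand. The doubles were above every other library, and Meg3 rose by 0.50 ± 0.09 against control (adjusted p = 0.0332; 0.156 without double 2). Rian, another noncoding RNA of that region, was at 0.56 ± 0.11 and just missed the threshold (adjusted p = 0.0579). A pair of loci without a gene name also rose, Gm12866 with 28.8, 39.8 and 35.1 in the doubles and 3.29, 4.16 and 5.88 in the controls, and AC149090.1 with 624, 575 and 717 in the doubles and 181, 251 and 407 in the controls. Both lie outside the rule for named genes and are given because they complete the 10.

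Among the 10 genes lower in the double, Tmtc1 fell furthest after Ptpmt1. Tmtc1, a protein of the endoplasmic reticulum that adds mannose to cadherins (chromosome 6, 148232430 to 148444389), had 63.8, 57.5 and 104 normalized counts in the doubles, 176, 144 and 172 in the Ptpmt1 knockouts, 156, 120.1 and 119 in the Eif2a mutants and 294, 270.1 and 159 in the controls. Control 3 was nearest to the doubles and double 3 nearest to the controls, and the groups did not overlap. The difference was -1.67 ± 0.24 (31.5% of control, 95% interval 22.0 to 45.0; adjusted p = 0.0114), and -1.50 without double 2 (adjusted p = 0.0727). Lmod2, leiomodin 2, which sets the length of the thin filament in heart muscle (chromosome 6, 24597762 to 24605414), had 525, 605 and 448 in the doubles, 705, 647 and 774 in the Ptpmt1 knockouts, 502, 706 and 794 in the Eif2a mutants and 993, 1076 and 918 in the controls. Every mutant library was below every control, and the double fell by 0.93 (adjusted p = 0.0194; 0.0406 without double 2). Sptb, erythroid beta spectrin, which is also made in muscle (chromosome 12, 76580488 to 76710547), had 500.4, 411 and 478 in the doubles, 803, 595 and 701 in the Ptpmt1 knockouts, 661, 772 and 805 in the Eif2a mutants and 849.9, 996 and 734 in the controls. The doubles were below every other library. Sptb fell by 0.89 (adjusted p = 0.0114; 0.0877 without double 2) and is the only called gene within 5 Mb of Eif2s1, where 69 genes were tested. The 12 tested erythroid markers took 0.0944 to 0.135% of reads in the doubles and 0.0878 to 0.311% in the controls. The lowest of these shares was that of control 3. Their part in the Sptb result was not tested. Reads of Sptb and Plekhg3, which overlaps it on the opposite strand, cannot be told apart. Plekhg3 was at 0.02 ± 0.10.

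The remaining falls were moderate. Trim2, a ubiquitin ligase of the axon, had 144, 97.2 and 114 normalized counts in the doubles and 228, 252 and 199 in the controls. The double was at -0.94 ± 0.16 (adjusted p = 0.0332) against control. Cemip, a hyaluronan-binding protein that takes part in its breakdown, had 109.7, 102 and 90.2 in the doubles, 195, 176 and 197 in the Ptpmt1 knockouts, 119, 86.9 and 94.4 in the Eif2a mutants and 205, 179.5 and 168 in the controls, so the doubles lay among the Eif2a mutants and below the other groups (-0.87 ± 0.15, adjusted p = 0.0332). R3hcc1 had 105, 124 and 125 in the doubles, 174, 171 and 198 in the Ptpmt1 knockouts, 91.3, 115 and 109 in the Eif2a mutants and 230.4, 238 and 199 in the controls. It fell by 0.91 in the double (adjusted p = 0.0194) and by 1.07 in the Eif2a mutant (adjusted p = 0.00813). Cdh3, P-cadherin, averaged 601 ± 36.2 in the doubles and 909 ± 18.4 in the controls (SD, n = 3 each; -0.60 ± 0.11, adjusted p = 0.0332). Trib2, a pseudokinase related to Trib3, had 619, 544 and 648 in the doubles, below all other libraries, and 898, 859 and 846 in the controls. On the log2 scale this was -0.53 ± 0.09 (adjusted p = 0.0332). Rrm2, the small subunit of ribonucleotide reductase, which makes DNA precursors, had 993, 924 and 929 in the doubles and 1186, 1315 and 1410.1 in the controls (-0.46 ± 0.08, adjusted p = 0.0332), the one called gene among 28 tested cell cycle genes, whose median was -0.09.

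**Figure D4:**
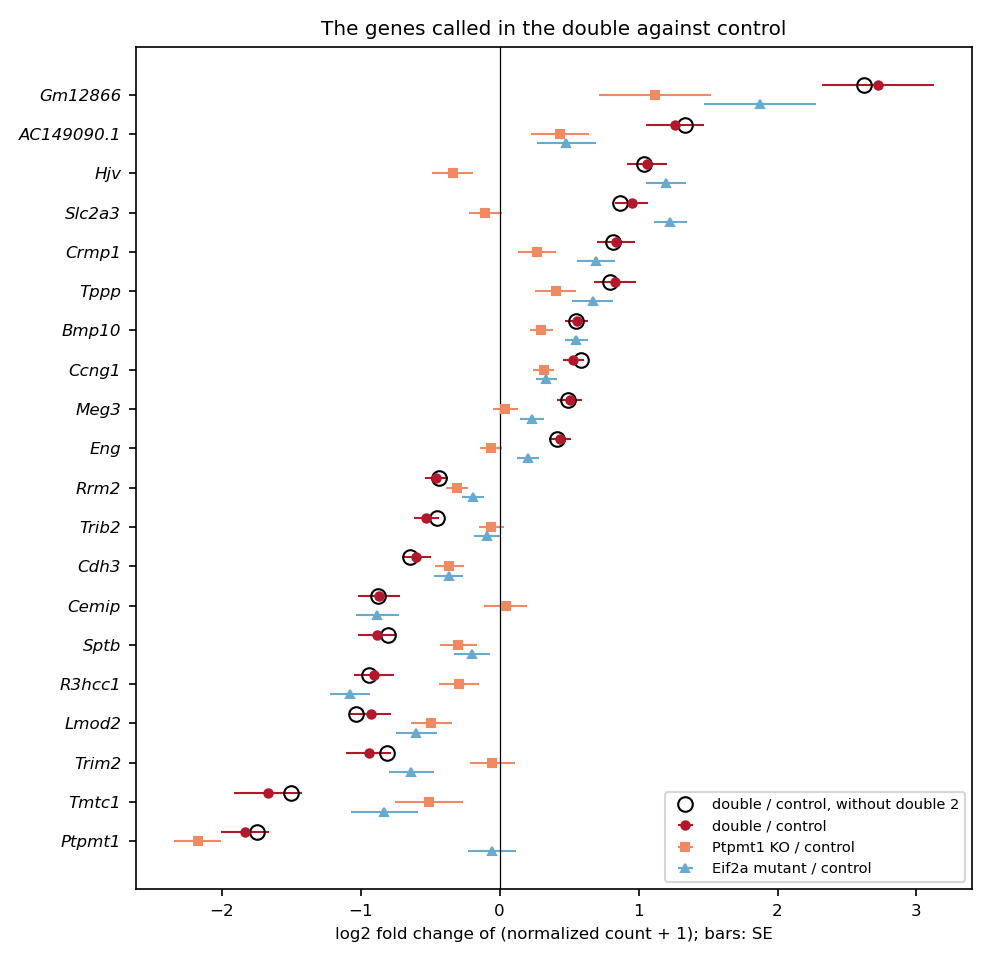
Log2 fold change (of normalized count + 1; bars are SE) of the 20 genes called in the double against control, with the same gene in the Ptpmt1 knockout and the Eif2a mutant against the same 3 controls, and, as open circles, the double without double 2. The open circles stay on the side of 0 of the filled ones; Slc2a3 is at 0.95 in the double, 1.23 in the Eif2a mutant and -0.10 in the Ptpmt1 knockout.

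All 20 genes had groups that did not overlap, as had 9.64% of tested genes with the doubles higher and 9.87% with the doubles lower. edgeR on the recovered reads called 19 of the 20 and DESeq2 all 20. With a term for the sex pattern, 10 of the 20 stayed called: Ptpmt1, Slc2a3, Hjv, Bmp10, Ccng1, Tmtc1, Sptb, R3hcc1, AC149090.1 and Gm12866. Without double 2, Ptpmt1, Slc2a3, Hjv, Ccng1 and Lmod2 did. The 18 genes other than Ptpmt1 and Slc2a3 lost the call in at least 1 of the 6 fits without 1 double or control, with a largest adjusted p of 0.0732 (Ccng1 and Hjv) to 0.258 (Cemip). Cemip, Cdh3, Trib2, Rrm2, Eng and Tppp were called in none of the 6.

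Most listed glycolysis and hypoxia response genes had positive fold changes against control, and none of them passed by limma. Slc2a3, the glucose transporter described above that was called higher, is in neither list. Ldha and Slc2a1 are in both lists, so the lists are not separate observations. Of 21 tested glycolysis genes 15 had a positive fold change in the double against control (median 0.12) and none passed by limma or edgeR, while DESeq2 called 2. At an unadjusted p under 0.05 by limma, 6 were higher and 2 lower, beside 4.69% and 5.41% of all genes tested. Against the same controls 17 of the 21 were positive in the Eif2a mutant (median 0.15) and 1 in the Ptpmt1 knockout (median -0.23). Pgk1, Ldha and other genes of this list have near-identical copies in the genome that may share their reads. Pgk1, phosphoglycerate kinase, had 2333, 2188 and 2369.9 normalized counts in the doubles, 1737, 1852 and 1687 in the Ptpmt1 knockouts, 1996, 2225 and 2206 in the Eif2a mutants and 1711, 1833 and 1839 in the controls (0.36 ± 0.08 against control, adjusted p = 0.0822; 0.39 ± 0.08 against the Ptpmt1 knockout, adjusted p = 0.0259). Ldha, lactate dehydrogenase A, had 11191, 11076 and 10937 in the doubles, 8114, 8096 and 8004 in the Ptpmt1 knockouts, 11561, 10831 and 10703 in the Eif2a mutants and 8931, 9035 and 9863 in the controls. Its doubles were all above the controls, and the Ptpmt1 knockouts all below them. The double was 0.26 ± 0.07 against control (adjusted p = 0.256) and rose by 0.46 against the Ptpmt1 knockout (adjusted p = 0.00887). Against the knockout 5 of the 21 were called higher, Pgk1, Ldha, Pkm, Pfkp and Pfkl (Pkm and Pfkl named after their values were seen), but 1 without double 1, 1 without double 2, 0 without double 3, 1 without Ptpmt1 knockout 1, 2 without Ptpmt1 knockout 2 and 9 without Ptpmt1 knockout 3. Each of the 5 lost the call in at least 1 fit without 1 double, Ldha at adjusted p = 0.0507 without double 3 and Pgk1 at up to 0.102. Pfkp, the platelet isoform of phosphofructokinase, was at 0.46 ± 0.09 there (adjusted p = 0.0259). Of 16 tested hypoxia response genes 14 were positive in the double against control with a median of 0.36 (0.37 without double 2). None passed by limma or edgeR, DESeq2 called 2, and 6 had an unadjusted p under 0.05, all higher (4.69% of all genes tested). The Eif2a mutant showed the same shift against control, with 14 of the 16 positive (median 0.38). In the Ptpmt1 knockout 9 were positive (median 0.03). Pfkfb3, which makes the activator of phosphofructokinase, had 476, 438 and 481 in the doubles and 323, 332 and 292 in the controls (0.56 ± 0.12, adjusted p = 0.104), and Vegfa, the vascular growth factor, 1839.7, 1551 and 1935 in the doubles and 1346, 1341 and 1192 in the controls. The log2 fold change of Vegfa was 0.45 ± 0.13 (adjusted p = 0.264). Slc2a1, the glucose transporter GLUT1, had 5171, 5295 and 4277 in the doubles and 3284, 3037 and 4874 in the controls (0.42 ± 0.14, adjusted p = 0.315), and control 3 lay among the doubles.

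Most genes of oxidative phosphorylation, fatty acid oxidation, the TCA cycle and the sarcomere had small negative fold changes in the double against control. None of the members of these lists passed by limma. The single mutants leaned the same way against the same controls. In the Ptpmt1 knockout 68 of 79 oxidative phosphorylation genes (median -0.18) and 21 of 22 sarcomere genes (-0.27) were negative. So were 19 of 23 fatty acid oxidation genes (-0.12) and 13 of 18 TCA cycle genes (-0.07). In the Eif2a mutant the numbers were 56 (-0.07), 18 (-0.14), 19 (-0.15) and 13 (-0.03) in that order. At an unadjusted p under 0.05 the shares of all genes tested were 4.69% higher and 5.41% lower, against which the counts of these lists are to be read. Of 79 tested subunits of oxidative phosphorylation complexes I to V, 63 had a negative fold change against control, with a median of -0.12 (-0.10 without double 2), and 0 passed by limma, edgeR or DESeq2; 14 lower and 2 higher had an unadjusted p under 0.05. Their summed share of reads was 1.19 to 1.30% in the doubles and 1.33 to 1.41% in the controls, with no overlap and an exact two-sided permutation p of 0.1, the smallest that 3 against 3 allows. Of 23 fatty acid oxidation genes 22 were negative (median -0.19), 0 passed by limma, edgeR or DESeq2, and 9 had an unadjusted p under 0.05, all lower. Eci1, an enoyl-CoA isomerase, had 357, 265 and 270.5 in the doubles and 403, 401 and 418 in the controls (-0.46 ± 0.13, adjusted p = 0.209). Hadha, the alpha subunit of the trifunctional protein, had 2286, 2245 and 2216 in the doubles and 2640.3, 2759 and 2679.8 in the controls (-0.26 ± 0.08, adjusted p = 0.292). Of 18 TCA cycle genes 16 were negative (median -0.13), 0 passed by limma, edgeR or DESeq2, and 5 lower and 0 higher had an unadjusted p under 0.05. Other mitochondrial lists were mixed. Of 8 tested mitochondrially encoded genes 6 were positive (median 0.37). Mitochondrially encoded RNA took 1.42 to 1.47% of reads in the doubles. It took 1.70, 1.55 and 0.675% in controls 1, 2 and 3, and only control 3 lay below the doubles. Of 58 mitochondrial ribosomal protein genes 26 were positive and 32 negative (median -0.01). Of 21 mitochondrial chaperones and proteases 14 were negative, as were 12 of 17 mitochondrial tRNA synthetases. So were 10 of 14 cristae genes, 11 of 20 import genes and 9 of 16 genes of dynamics and mitophagy (medians -0.06 to -0.02). Of 22 sarcomere genes 17 were negative (median -0.16; -0.21 without double 2), 0 passed by limma or edgeR, DESeq2 called 2, and 8 lower and 1 higher had an unadjusted p under 0.05. Lmod2, the thin filament gene described above, is not among the 22 and was called lower (-0.93, adjusted p = 0.0194 by limma). The summed share of the listed sarcomere genes overlapped, at 7.47 to 9.16% of reads in the doubles and 7.91 to 8.86% in the controls (exact permutation test, two-sided p = 0.7). Mybpc3, a thick filament protein, had 14125, 14527 and 13132 in the doubles and 17626, 18074 and 18781 in the controls (-0.38 ± 0.10, adjusted p = 0.203). Myl2, the ventricular regulatory light chain, had 27482, 26279 and 28660.0 in the doubles and 34543, 34678 and 33068 in the controls (-0.31 ± 0.09, adjusted p = 0.264). Of the 15 cardiomyocyte markers 12 were negative (median -0.15). This list shares genes with the sarcomere list, Mybpc3 and Myl2 among them, and is not a separate observation. The part of the cardiomyocyte markers in these lists was not tested. Cytosolic ribosomal protein genes were positive in 58 of 65 (median 0.11) with 0 passing by limma, edgeR or DESeq2 and 6 higher at an unadjusted p under 0.05; near-identical copies in the genome may share their reads. Of the 14 tested genes of cardiolipin synthesis and remodelling, Ptpmt1 included, Ptpmt1 alone passed (median 0.03).

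**Figure D5:**
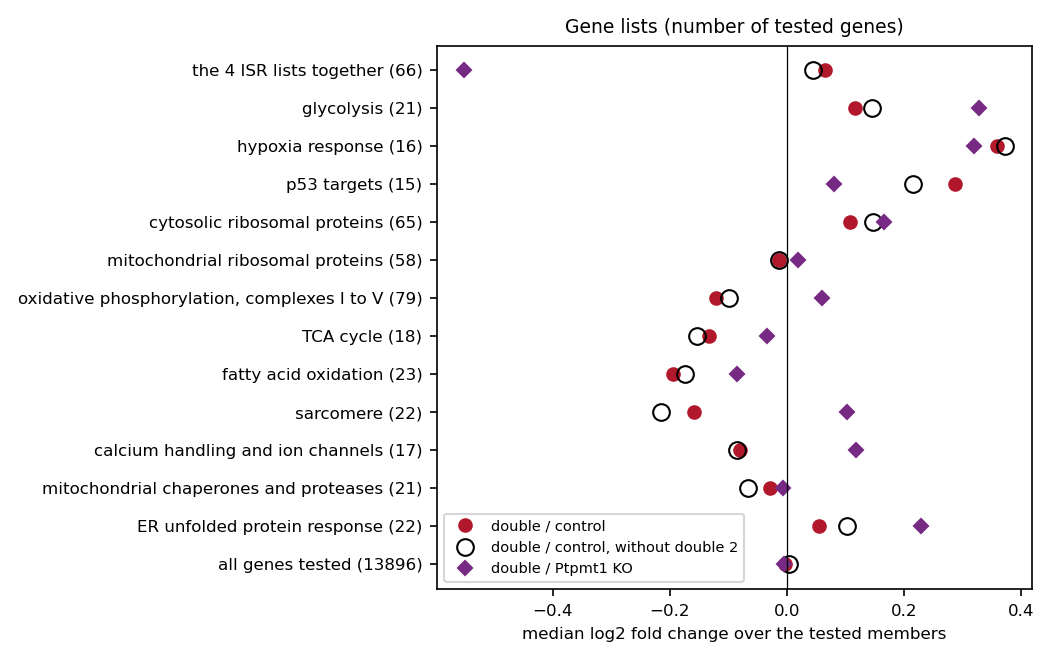
Median log2 fold change over the tested members of 13 gene lists and of all genes, for the double against control (filled circles), the same without double 2 (open circles) and the double against the Ptpmt1 knockout (diamonds); the number of tested genes is in brackets. The ISR lists are at 0.07 against control and -0.55 against the Ptpmt1 knockout, and the median of all genes is at -0.00 against either.

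Genes used as signs of cardiac stress did not pass. In a list of 14 tested fetal and stress genes of the heart, 10 were negative against control (median -0.12). By limma, 2 were higher and 4 lower at an unadjusted p under 0.05, beside 4.69% and 5.41% of all genes tested. The summed share of the list was 1.08 to 1.16% of reads in the doubles and 1.25 to 1.39% in the controls, without overlap (exact permutation test, two-sided p = 0.1, the smallest possible). Nppa, atrial natriuretic peptide, had 7624, 8366 and 10207 normalized counts in the doubles and 8604, 10073 and 8251 in the controls (-0.05 ± 0.19, adjusted p = 0.961). Nppb, brain natriuretic peptide, had 1163, 1511 and 709.6 in the doubles and 892, 895 and 717 in the controls. The difference in Nppb was 0.37 ± 0.20 (adjusted p = 0.552). The groups overlapped for each peptide. Myh6, the alpha heavy chain of myosin, had 22096, 24776 and 19244 in the doubles and 25229.6, 21982 and 42268 in the controls, with control 3 far above the rest (-0.38 ± 0.20, adjusted p = 0.534). Myh7, the beta heavy chain, had 71102, 68596 and 65053 in the doubles and 86392, 88673 and 79991 in the controls without overlap (-0.32 ± 0.13, adjusted p = 0.435); antisense RNAs overlap the myosin genes and their reads cannot be told apart.

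Against the Ptpmt1 knockout, the genes with the smallest p among those higher in the double were Hjv, Slc2a3, Mt2, Rnf17, Stxbp2 and Eng. Mt2, a metal-binding metallothionein, had 36.6, 44.2 and 62.1 normalized counts in the doubles, 5.57, 3.79 and 6.31 in the Ptpmt1 knockouts, 43.1, 75.2 and 96.5 in the Eif2a mutants and 32.1, 41.6 and 21.3 in the controls, so the knockouts stood apart from every other library (2.95 ± 0.37, adjusted p = 0.00137) while the double was at 0.59 ± 0.37 against control (adjusted p = 0.611). Rnf17, a tudor-domain protein of germ cells, had 162, 265 and 186 in the doubles, 42.2, 30.3 and 29.0 in the Ptpmt1 knockouts, 167, 71.5 and 88.1 in the Eif2a mutants and 70.8, 95.6 and 33.8 in the controls (2.55 ± 0.36 against the knockout, adjusted p = 0.00379; 1.69 ± 0.36 against control, adjusted p = 0.0822). Stxbp2, a vesicle fusion protein, had 458, 522 and 457 in the doubles, 318, 325 and 286 in the Ptpmt1 knockouts and 331, 353 and 348 in the controls (0.62 ± 0.09 against the knockout, adjusted p = 0.00642; 0.47 ± 0.09 against control, adjusted p = 0.0732). On the lower side stood Asns, Mthfd2, Aldh1l2, Trib3, Cars and Pck2, the mitochondrial phosphoenolpyruvate carboxykinase, which had 293, 269.6 and 270.5 in the doubles, 507, 475 and 724 in the Ptpmt1 knockouts and 288, 328 and 268 in the controls (-1.01 ± 0.14 against the knockout, adjusted p = 0.00379).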

How the data were processed

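The deposited table holds 1 normalized signal per gene for 12 libraries, named by symbol for 32245 genes, of which 26 appear as dates, as a spreadsheet rewrites some symbols. Per the submitters' processing notes the tools were STAR 2.5.3a and DESeq2 1.12.4, with the build mm10 and no roles stated. How reads were counted, with which annotation and strand, is not given in the sources used here. Within a column, all deposited signal values were whole multiples of 1 step, and dividing by it gave whole reads for 100% of values (tolerance 0.1), from which depths come. Overlaps and positions are from GENCODE vM21 or RefSeq.

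Genes whose value reached 10 in at least 3 of 12 columns (13896) were tested with limma 3.58.1 (R 4.3.3, intensity trend) on log2(value + 1), in 1 fit of 4 group means, two-sided, with Benjamini-Hochberg adjustment over all tested genes and a threshold of 0.05. Called means past this threshold. Because 1 was added before the logarithm, fold changes of low genes are understated, and 95% intervals are from the same fit and unadjusted. edgeR 4.0.16 and DESeq2 1.42.0 were run on the recovered reads as alternatives; edgeR called 21 genes and DESeq2 93 in the double against control. Summed shares of lists were compared by an exact permutation test, which cannot go below 0.1 for 3 against 3. The fit was tested on simulated data.

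Genes were named by rule, leaving out clone names: those targeted, a panel of ISR and cardiac genes, called genes that averaged 50 or more in their higher group without overlap, the smallest p in each direction, and in each list the 4 members of smallest p. The comparison, the panel and the lists were chosen with earlier results of these data known. Samples were grouped by their genotype labels and numbered within groups in accession order, which pairs nothing. The tables of other lines were not used here.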

Additional observations from a re-analysis of the deposited data

Results flagged for a closer look

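The effect of Ptpmt1 loss differed between hearts with and without the Eif2a mutation, by the test of the interaction over all genes, for 3 genes. Trib3 differed by -4.63 (log2; adjusted p = 0.000525): the double was at -0.68 ± 0.34 against the Eif2a mutant, and the Ptpmt1 knockout at 3.96 ± 0.34 against control. Asns differed by -2.09 (adjusted p = 0.000525), with 0.27 ± 0.15 in the double against the Eif2a mutant and 2.36 ± 0.15 in the Ptpmt1 knockout against control. Mthfd2 differed by -1.84 (adjusted p = 0.00835), with 0.04 ± 0.17 in the double against the Eif2a mutant and 1.88 ± 0.17 in the Ptpmt1 knockout against control. In all 3 genes every Ptpmt1 knockout library was above every library of the other groups. At an unadjusted p under 0.05 the interaction held for 981 genes. Ptpmt1 knockout 3 gave the highest value of its group for Trib3, Asns and Mthfd2. Without it the interaction was -4.16 for Trib3, -1.95 for Asns and -1.62 for Mthfd2, with adjusted p = 0.000448, 0.000653 and 0.00323 by limma.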

How the results depend on the processing

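In the double against control, the number of called genes (20; 10 higher, 10 lower) changed by more than 1.5 times with array quality weights (845; 361 higher, 484 lower), with DESeq2 (93; 44 higher, 49 lower), and with a sex term (11, of which 4 lower). The number lower was 17 in a fit of the double and control libraries alone and 6 with limma voom. Leaving out 1 of the 12 libraries gave 3 to 65 calls, 2 to 30 higher and 1 to 35 lower; 65 came without Ptpmt1 knockout 3. Without both double 2 and Eif2a mutant 1 there were 9 (5 higher, 4 lower). The alternatives added after seeing the data were the fits without 1 Ptpmt1 knockout, Eif2a mutant 2 or Eif2a mutant 3, and those without double 2, which gave 9 by edgeR (5 higher, 4 lower), 56 by DESeq2 (27 higher, 29 lower) and 4 with a sex term (1 higher, 3 lower). Against the Ptpmt1 knockout (122) there were 1637 with array weights, 58 with a sex term, 317 by DESeq2 and 29 to 327 with 1 library left out; without double 2, edgeR gave 56, DESeq2 208 and the sex term 16. Against the Eif2a mutant (1) there were 55 with array weights, 22 by DESeq2 (18 without double 2), and 1 to 2 with 1 library left out. The interaction (3) gave 6 with a pseudocount of 5 and 6 without a filter, 324 with array weights, 5 by edgeR, 32 by DESeq2 (30 without double 2), 1 by voom, 0 with a sex term without double 2, 9 without both double 2 and Eif2a mutant 1, and 3 to 35 with 1 library left out. The cause of these changes was not tested. For the 4 ISR lists, calls in the double against control appeared with array weights (3 higher, 2 lower), DESeq2 (1 lower) and without control 3 (1 lower). Of 11141 values of single genes under the alternatives, 10677 kept their side of the threshold, and 243 changed sign, all of them values that passed in neither fit. No paired analysis was possible because the labels give no replicate numbers. In double 2 a value rests on about 1 read for every 4.42 normalized counts, so genes of low normalized count were not measured well there.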

Other observations

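By chromosome, the 20 called genes included several from chromosomes 12 and 6. Chromosome 12, which carries Eif2s1 and 3.54% of the tested genes with a position, held 4 of them: Sptb, Meg3, Trib2 and Rrm2. Chromosome 6, with 4.93% of tested genes, held another 4: Slc2a3, Bmp10, Tmtc1 and Lmod2. Of 69 genes tested within 5 Mb of Eif2s1 only Sptb was called, and 0 of 49 around Ptpmt1 and 0 of 30 around Eif2a by limma.

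Red cell genes varied between the controls. All 12 tested erythroid markers had a negative fold change in the double against control (median -0.75), 0 were called by limma, edgeR or DESeq2, and 2 had an unadjusted p under 0.05 (5.41% of all genes tested were lower at that p). Alas2, the first enzyme of haem synthesis in red cells, had 75.5, 70.7 and 115 normalized counts in the doubles and 225, 256 and 71.3 in the controls. Hbb-bs, a beta globin, had 21.0, 4.42 and 28.1 in the doubles and 145, 216 and 21.3 in the controls, so control 3 lay within the range of the doubles for both. The summed erythroid share gave a two-sided exact permutation p of 0.4 between the groups. Mitochondrially encoded RNA took 1.42 to 1.47% of reads in the doubles and 1.70, 1.55 and 0.675% in controls 1, 2 and 3, so that control 3 was the lowest of the 6.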
